A study of Rattus norvegicus with 16 samples.

Results

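MicroRNAs (miRNAs) are short RNAs, cut from hairpin precursors, that pair through a seed near their 5′ end with messenger RNAs and lower the output of those messages. The miRNAs described here are rno-miR-218 and rno-miR-135a, 2 of the 350 rat miRNAs on the array. They were chosen by their detection calls in the control rats, since both were detected on every kidney control array and on no plasma control array, a rule that 14 of the 350 miRNAs met. That contrast is therefore given only as a description.

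The arrays covered 4 groups of 4 pools each. The kidney CI-AKI and plasma CI-AKI pools came from male Sprague-Dawley rats given the contrast medium Omnipaque (iohexol, 350 mg iodine per ml) at 10 ml/kg into the tail vein, a model of contrast-induced acute kidney injury (CI-AKI). The kidney control and plasma control pools came from rats given the same volume of saline. All 24 rats, controls included, had first been deprived of water for 3 days and given furosemide, a diuretic, at 10 mg/kg, so the controls were not untreated animals. Tissue was taken 8 h after the injection, and each pool mixed the RNA of 3 rats, so error values below are between pooled samples and not between single animals. Whole kidney and plasma are mixtures, and fewer cells of a type cannot be told apart from less RNA per cell.

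The sequences identify what the array could and could not separate, and are RefSeq's (build GRCr8), written 5′ to 3′ with the seed, bases 2 to 8, in capitals. RefSeq's name for the array's rno-miR-218 is rno-miR-218a-5p, and for its rno-miR-135a it is rno-miR-135a-5p. The third line, rno-miR-135b-5p, is shown because it has the same seed as miR-135a and differs from it by a single base.
rno-miR-218a-5p: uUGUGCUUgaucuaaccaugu
rno-miR-135a-5p: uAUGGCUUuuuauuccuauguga
rno-miR-135b-5p: uAUGGCUUuucauuccuauguga
Counted from the 5′ end of miR-135a, the difference is U11C, and the other 22 of 23 bases are identical. Among the 724 mature entries of the RefSeq table, no other name carried the seed of miR-218, and miR-135b was the only other one with the seed of miR-135a. The members do not share a seed with each other.

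Mature miR-218 is encoded at 2 loci. Mir218-2 lies at chr10:20572523-20572632 on the plus strand, within the span of the protein-coding gene Slit3 (chr10:20075929-20660704). Mir218-1 lies at chr14:66922348-66922457 on the minus strand, within the span of Slit2 (chr14:66829661-67168517). Slit proteins are secreted guidance cues that signal through Robo receptors, act in axon guidance and help to place the budding ureter in the developing kidney, and Robo1 is a known target of miR-218 in mammals. The hairpins are shown with the mature miRNA in capitals, because they show why the array reads both loci as 1 miRNA.
Mir218-2: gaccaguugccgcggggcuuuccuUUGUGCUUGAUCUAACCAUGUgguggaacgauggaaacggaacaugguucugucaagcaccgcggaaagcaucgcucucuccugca
Mir218-1: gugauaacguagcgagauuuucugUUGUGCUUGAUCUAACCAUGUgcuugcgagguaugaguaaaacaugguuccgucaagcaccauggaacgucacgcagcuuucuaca
Mir135a: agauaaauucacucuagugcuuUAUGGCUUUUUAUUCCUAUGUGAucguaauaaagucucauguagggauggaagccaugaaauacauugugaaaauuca
The capitals span bases 25 to 45 of both Mir218 hairpins and are identical, while the whole hairpins match, aligned without gaps, at 70 of 110 positions. A signal for miR-218 is thus the sum of what both loci yield. On the strand opposite Mir218-1 the table lists miR-218b (chr14:66922414-66922433, plus strand), whose 20 bases lie within the reverse complement of miR-218a-5p and which is not on the array. Mir135a lies at chr7:28499166-28499265 on the minus strand, within the span of the long non-coding RNA gene LOC102548260 (chr7:28498101-28591490). The annotation table gives gene spans only, so exon or intron placement is not stated. As background, miR-218 is known for its abundance in motor neurons, and miR-135a is known, from work in human colorectal cells, to lower APC, a brake on Wnt signalling.

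The arrays differed in strength, and this bears on what a missing detection call shows. Between 169 and 216 miRNAs were detected on the 8 kidney arrays, and 156 to 211 on 6 of the plasma arrays, but 95 on plasma CI-AKI pool 4 and 84 on plasma control pool 4. The summed signal of detected miRNAs was 7068 and 3484 on those weak arrays, while the remaining 6 had 24171 to 123239. Of the listed kidney tubule and collecting duct miRNAs, 12 of 12 were detected on all 8 kidney arrays, as were 163 of all 350 miRNAs and all 4 endothelial miRNAs. The liver miRNA miR-122 and the muscle miRNAs miR-1, miR-133a and miR-206 were detected on none of them. Other muscle miRNAs were detected, miR-499 on all 8 kidney arrays and miR-133b on 3 of the 4 kidney CI-AKI arrays. These counts do not by themselves establish kidney identity. The blood cell miRNAs miR-451, miR-144, miR-223, miR-142-3p, miR-142-5p and miR-150 were detected on all 8 kidney arrays too. Their summed scaled signal was 872 to 940 in the kidney CI-AKI pools and 821 to 936 in the kidney control pools, and its part in the members' signals was not tested. All plasma arrays lay on one slide and all kidney arrays on another, so tissue and slide cannot be told apart.

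Both miRNAs were readily measured in the kidney and not detected in plasma, in treated and control rats alike. The processed signal of miR-218, which is the background-corrected brightness in arbitrary units averaged over spots and probes, was 222, 161, 89.6 and 179 in kidney CI-AKI pools 1 to 4. It was 142, 183, 173 and 138 in kidney control pools 1 to 4. In plasma it was -1.22, 2.79, 2.99 and -1.0 in CI-AKI pools 1 to 4 and 4.43, 2.16, 5.78 and -0.60 in control pools 1 to 4. Every kidney value lay above every plasma value, and within the kidney the treated and control pools overlapped.

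For miR-135a the processed signal was 59.5, 65.4, 15.9 and 68.5 in kidney CI-AKI pools 1 to 4, and 35.8, 66.6, 60.7 and 56.0 in kidney control pools 1 to 4. In plasma it was negative in all pools, at -1.21, -1.40, -1.35 and -0.76 in CI-AKI pools 1 to 4 and -0.68, -1.07, -1.10 and -0.14 in control pools 1 to 4. CI-AKI pool 3 was the lowest kidney pool for both miRNAs, and its array also had the lowest summed signal of the 8 kidney arrays, 59735 against 89065 to 124853 on the other 7. Brightness on an array depends on the probe, so the signals of the miRNAs cannot be set against each other.

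**Figure D1:**
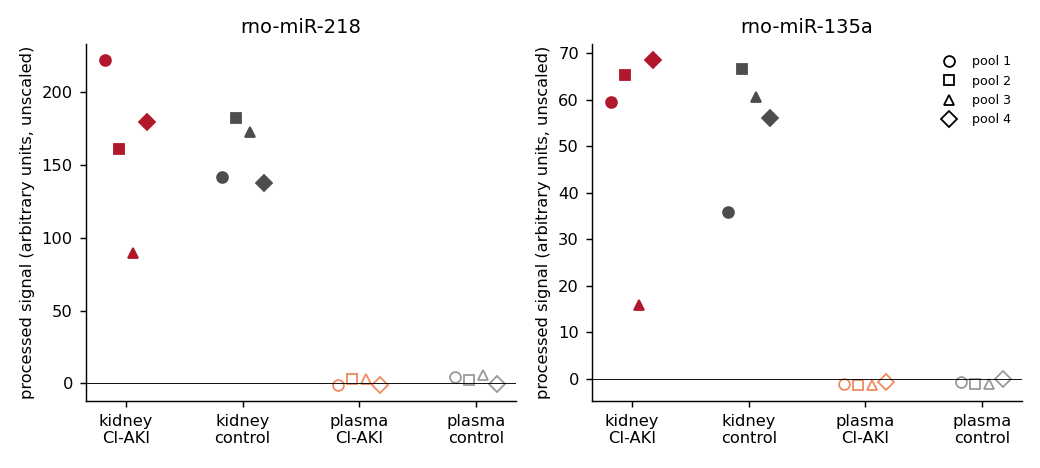
Processed signal (arbitrary units, not scaled between arrays) of miR-218 (left) and miR-135a (right) on each of the 16 arrays, by group, with a symbol for each pool; filled symbols were detected and open symbols were not. All 8 kidney values are detected for both miRNAs and all 8 plasma values lie near 0, with miR-135a at 15.9 in kidney CI-AKI pool 3 as its lowest kidney value.

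The scanner software's call can be read from the files. A miRNA was called detected when the signal of its best probe was above 3 times its error: the lowest such ratio among 2847 detected values was 3.00 and the highest among 2753 undetected ones 2.997. On the kidney arrays miR-218 had ratios of 9.86 to 9.98 in CI-AKI pools and 9.91 to 9.96 in control pools. MiR-135a had 8.48 to 9.91 in kidney CI-AKI pools and 9.56 to 9.85 in kidney control pools, so no kidney call was close to the limit.

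In plasma the members differed in how far they lay from that limit. The ratio of miR-218 was -0.51, 1.31, 1.45 and -0.45 in plasma CI-AKI pools 1 to 4, and 2.99, 1.18, 2.36 and -0.19 in plasma control pools 1 to 4. Control pool 1 therefore missed a detection call by less than 0.01 of the ratio. The ratio of miR-135a reached at most 0.0051 in the plasma CI-AKI pools and 0.66 in the plasma control pools, so no plasma array was near a call.

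The single spots give a finer scale. Each miRNA is printed in 20 spots, and the software marks each spot whose signal is positive and significant against its background. For miR-218, 20 of 71 usable spots were marked over the plasma CI-AKI arrays and 40 of 77 over the plasma control arrays. By array these shares were 0%, 63.2%, 41.2% and 5.26% in plasma CI-AKI pools 1 to 4, and 57.9%, 50%, 83.3% and 20% in plasma control pools 1 to 4. For miR-135a, 6 of 80 spots were marked in plasma CI-AKI arrays and 11 of 79 in plasma control arrays. On the same arrays 1.13% to 2.94% of negative control spots were marked, and the median share over undetected miRNAs was 15.8% to 26.3%. Among undetected miRNAs, those with a larger share than miR-218 numbered 174 of 194, 16 of 139, 33 of 161 and 234 of 255 on plasma CI-AKI pools 1 to 4, and 27 of 162, 17 of 150, 6 of 142 and 125 of 266 on plasma control pools 1 to 4. MiR-218 thus stood high among undetected miRNAs on 5 plasma arrays and not on CI-AKI pool 1 or on either array of pool 4. A spot's mark is a weaker criterion than the call for the miRNA, and cross-hybridisation to other RNAs was not tested.

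**Figure D2:**
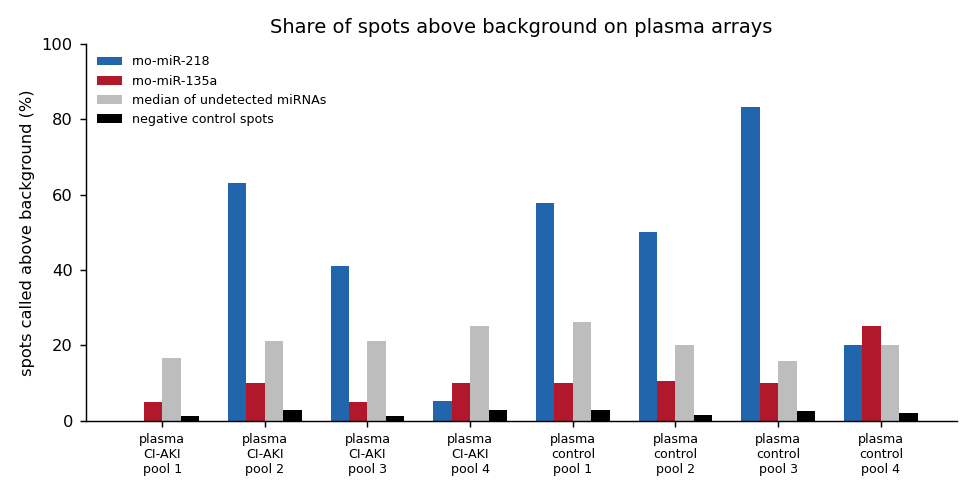
Percent of usable spots marked above background on each plasma array, for miR-218, miR-135a, the median undetected miRNA and the negative control spots. On plasma CI-AKI pools 2 and 3 and plasma control pools 1 to 3, miR-218 stands at 41.2% to 83.3%, while miR-135a stands at or below 10.5% on every plasma array except control pool 4, where it is at 25%.

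Plasma levels of both miRNAs were compared between treatments only as these values, since neither was detected on any plasma array and no test was run. Scaled over all 16 arrays, the lowest detected signal of any miRNA was 38.1 on plasma CI-AKI pool 4 and 43.2 on plasma control pool 4, while the other plasma arrays had 0.18 to 8.22. On that scale miR-135a had 13.4 to 28.3 in kidney CI-AKI pools and 18.9 to 30.3 in kidney control pools, below the limits of both weak arrays. These limits come from the probes of other miRNAs, so the level at which either member would have been detected on the weak arrays was not determined.

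The question whether contrast medium moved these miRNAs in the kidney was answered on 176 miRNAs that were detected on all arrays of at least one kidney group, with limma and Benjamini-Hochberg adjustment. For this each array was scaled to its 75th percentile, which gives a scaled signal in arbitrary units. Over all tested miRNAs, 1.7% passed an adjusted p of 0.05, namely miR-327, miR-466b and miR-494, all higher after contrast medium. Neither miR-218 nor miR-135a was among them.

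The scaled signal of miR-218 was 184, 139, 149 and 159 in kidney CI-AKI pools 1 to 4, and 159, 151, 164 and 148 in kidney control pools 1 to 4. The groups overlapped, with both the highest and the lowest pool in the CI-AKI group. Means were 158 ± 19.4 in CI-AKI and 155 ± 7.5 in control kidneys (SD, n = 4 pools each). The log2 difference, CI-AKI minus control, was 0.02 with a standard error of 0.09 (limma, adjusted p = 0.957), a ratio whose 95% interval ran from 0.877 to 1.17. Its sign changed with the scaling and with single pools: it was -0.06 without CI-AKI pool 1 and -0.01 without control pool 4. On the slide, row 1 alone gave 0.05 and row 2 alone -0.01, and with the row as a block it was 0.02.

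The scaled signal of miR-135a was 49.4, 56.4, 26.5 and 60.8 in kidney CI-AKI pools 1 to 4, and 40.1, 55.1, 57.7 and 60.1 in kidney control pools 1 to 4. The groups overlapped, CI-AKI pool 3 being the lowest and CI-AKI pool 4 the highest of the 8. Means were 48.3 ± 15.3 in CI-AKI and 53.2 ± 9.0 in control kidneys (SD, n = 4 pools each). The log2 difference was -0.19 with a standard error of 0.25 (limma, adjusted p = 0.917), and the 95% interval of the ratio ran from 0.59 to 1.30. The direction changed without CI-AKI pool 3, to 0.06, and also when treatment was taken from the letter codes in the labels, which contradict the titles between tissues, to 0.20. Row 1 of the slide alone gave 0.17 and row 2 alone, which holds CI-AKI pool 3, gave -0.55, and with the row as a block the value was -0.19.

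**Figure D3:**
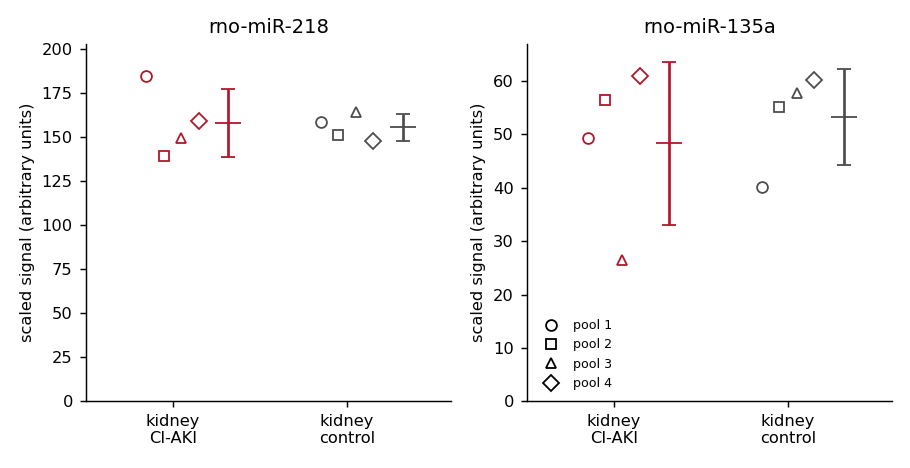
Scaled signal (arbitrary units) of miR-218 (left) and miR-135a (right) in the 4 kidney CI-AKI and 4 kidney control pools, with the mean and SD beside the points. The groups overlap for both miRNAs, and the widest spread is that of miR-135a in CI-AKI kidneys, 48.3 ± 15.3 against 53.2 ± 9.0 in control kidneys.

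MiR-135a was among the more variable kidney miRNAs between pools, and miR-218 was not. The SD of the log2 signal of miR-135a was 0.54 between CI-AKI pools, larger than that of 168 of the 176 tested miRNAs, and 0.27 between control pools, larger than that of 162. The SD of miR-218 was 0.17 between CI-AKI pools, larger than that of 115, and 0.07 between control pools, larger than that of 42. The median over tested miRNAs was 0.13 in CI-AKI and 0.11 in control pools.

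The low value of miR-135a in CI-AKI pool 3 was seen with each of its probes. Against the mean of the other CI-AKI pools the log2 difference was -0.91 for probe 1 and -1.22 for probe 3, which had ratios of signal to error of 8.48 and 6.45 on that array. Probe 2 was also lowest there, but at a ratio of 2.05 it was not above the detection limit, so no difference is given for it. Averaged over probes miR-135a deviated by -1.06, the lowest value among the 163 miRNAs detected on all kidney arrays, where the median deviation was -0.04. Among the 45 other miRNAs within 1 log2 unit of its brightness none lay lower, and their median was -0.05. MiR-218 deviated by -0.10, with 63 of 163 lower. The next lowest were miR-333_v11.0 at -0.76 and miR-182 at -0.64, both among the miRNAs that met the same detection rule. Other miRNAs lay as far in the upward direction on that array, with miR-139-3p at 1.37, miR-409-3p at 1.28 and miR-320 at 1.09. In that pool the median deviation was 0.02 over the 12 kidney tubule and collecting duct miRNAs, -0.09 over the 6 blood cell miRNAs, -0.12 over the 4 endothelial miRNAs and -0.26 over the 4 neural miRNAs measured on all kidney arrays. The lowest of these were miR-7a at -0.52, in the neural list, and miR-126* at -0.51, in the endothelial list. The part of these cell types in the value of miR-135a was not tested. The part of that array's low summed signal in the deviation was not tested.

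**Figure D4:**
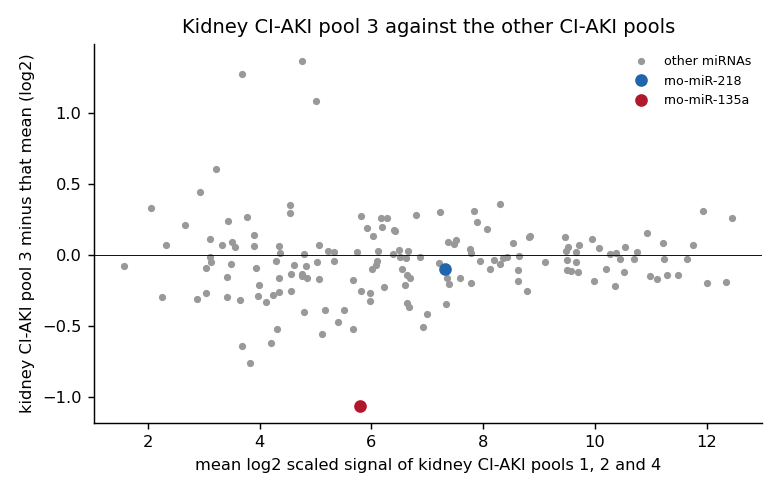
Log2 scaled signal of each of the 163 miRNAs detected on all kidney arrays in kidney CI-AKI pool 3 minus its mean over CI-AKI pools 1, 2 and 4 (vertical axis), against that mean (horizontal axis). MiR-135a, for whose low value the pool was singled out, has the lowest value, -1.06. MiR-218 lies at -0.10 within the body of the points.

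Within each miRNA the probes gave treatment differences of the same sign, and how closely they moved together across pools was not tested. The log2 difference, CI-AKI minus control, was 0.02 for both probes of miR-218, and -0.27, -0.16 and -0.07 for probes 1 to 3 of miR-135a. The median coefficient of variation between the spots of a probe was 7.13%, 14.9% and 5.61% for probes 1 to 3 of miR-135a. For the probes of miR-218 it was 4.35% and 3.58%. The files do not hold the probe sequences, so whether the probes of miR-135a tell it from miR-135b was not examined from sequence.

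**Figure D5:**
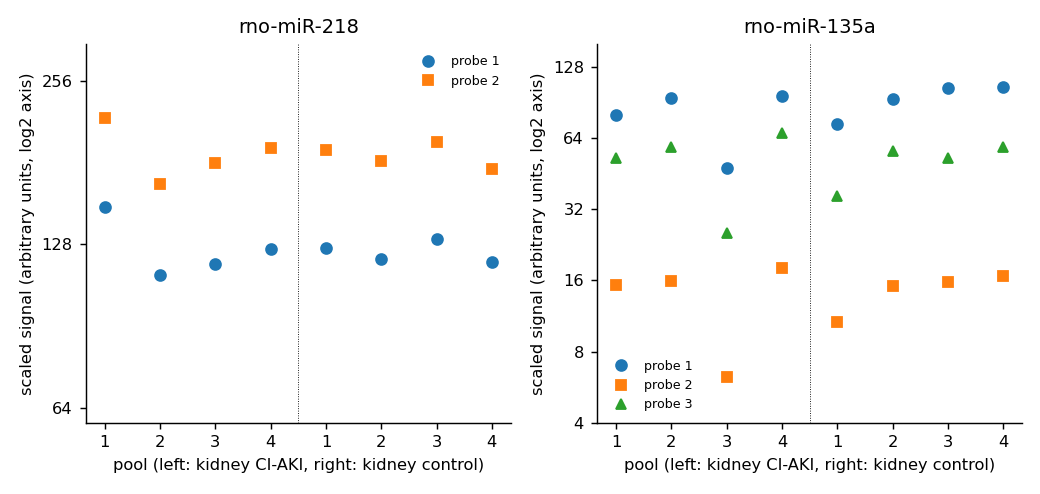
Scaled signal (arbitrary units, log2 axis) of each probe of miR-218 (left) and miR-135a (right) in the kidney pools, CI-AKI left of the dotted line and control right of it. All 3 probes of miR-135a are lowest in CI-AKI pool 3, probe 2 there not above the detection limit, and next lowest in control pool 1, while the probes of miR-218 are highest in CI-AKI pool 1.

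The same kidney against plasma contrast can be given for the CI-AKI arrays, which the choice of the miRNAs did not use. Both members entered that comparison only through the kidney group, where they were detected, and plasma signals under 0.988 were set to that floor. The fitted difference and its p therefore depend on the floor and add no support to the detection calls. The fitted size is given only among the processing alternatives. On the scale of that comparison miR-218 had 83.9, 64.7, 72.6 and 71.2 in kidney CI-AKI pools 1 to 4, against -2.94, 1.91, 3.36 and -11.1 in plasma CI-AKI pools 1 to 4. Of 181 miRNAs tested, 27.6% were higher in kidney at an adjusted p of 0.05, and 28.7% were higher without overlap of the groups. All 4 kidney values of miR-218 lay above all 4 plasma values, with means of 73.1 ± 7.98 in kidney and -2.19 ± 6.51 in plasma (SD, n = 4 pools each; limma with the floor, adjusted p = 1.01e-06). Plasma gives only a limit. Counting each plasma array at its lowest detected signal or its own signal, whichever was higher, miR-218 was at least 11.1-fold higher in CI-AKI kidney.

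MiR-135a had 22.5, 26.2, 12.9 and 27.2 in kidney CI-AKI pools 1 to 4, against -2.92, -0.96, -1.52 and -8.44 in plasma CI-AKI pools 1 to 4. The groups did not overlap here either, with means of 22.2 ± 6.53 in kidney and -3.46 ± 3.42 in plasma (SD, n = 4 pools each). The adjusted p was 3.74e-07 (limma), with all 4 plasma values at the same floor, so it reflects no variation between plasma pools. By the same count of limits miR-135a was at least 7.11-fold higher in kidney. These folds hold only as far as the lowest detected signal, which belongs to other miRNAs' probes, stands for the members' own limit, and on plasma CI-AKI pools 2 and 3 miR-218 was itself undetected at signals above it. They also depend on single plasma arrays. Without plasma CI-AKI pool 4, whose lowest detected signal was 36.7, they were 19.7-fold for miR-218 and 16.4-fold for miR-135a. Without plasma CI-AKI pool 2, the array with the lowest limit at 0.17, they were 7.34-fold and 2.75-fold. In control rats, where the rule had used the contrast, the same bounds were 11.8-fold for miR-218 and 6.27-fold for miR-135a.

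The detection pattern itself recurred in treated rats. Both miRNAs were detected on 4 of 4 kidney CI-AKI and 0 of 4 plasma CI-AKI arrays, a pattern that 4.57% of the 350 miRNAs showed, 16 in number. Plasma CI-AKI pool 4 is counted there, although its lowest detected signal lay above the kidney values of miR-135a. Of the 14 miRNAs that met the rule on control arrays, 12 met it again on CI-AKI arrays. The exceptions were miR-190, detected on 3 kidney and 1 plasma CI-AKI arrays, and miR-196b, detected on 4 and 1. The others were miR-182, miR-196a, miR-196c, miR-333_v11.0, miR-340-3p, miR-489, miR-672, miR-9, miR-9* and miR-96. In kidney none of the 14 differed between CI-AKI and control at the threshold, with log2 differences between -0.25 for miR-96 and 0.20 for miR-9, against a median of 0.03 over all 176 tested.

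Just outside the rule were 4 miRNAs. MiR-499, a muscle miRNA, was detected on all kidney control arrays and on 1 plasma control array, at a ratio of signal to error of 3.04. MiR-129*, miR-379 and miR-99a* were each detected on 3 of 4 kidney control arrays and on no plasma control array, with lowest kidney control ratios of 2.37, 1.93 and 2.85. Just inside it lay miR-218 at 2.99 on plasma control pool 1.

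Relatives of the members gave almost no signal. The array carries miR-135b, which shares the seed of miR-135a, and the opposite strands miR-135a* and miR-218*. MiR-135b and miR-135a* were detected on none of the 16 arrays, and miR-218* on plasma control pool 4 alone, one of the weak arrays. In the kidney the mean scaled signal of miR-135b was -0.098 in CI-AKI pools and -0.26 in control pools, and that of miR-135a* was 1.13 in CI-AKI pools and 0.71 in control pools. Among these miRNAs, then, the kidney arrays gave detection calls for miR-135a and miR-218 alone.

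Most kidney-typical miRNAs did not meet the rule, although they were higher in kidney. In the CI-AKI rats 10 of the 12 kidney tubule and collecting duct miRNAs passed as higher in kidney than in plasma and 0 as lower, with a median log2 difference of 3.27 against -0.59 over all 181 tested. Of the same 12 miRNAs, 2 met the rule on control arrays, miR-196a and miR-196b, and 1, miR-196a, was detected on no plasma array of either treatment, while 3 were detected on all 8 plasma arrays. Of 12 neural miRNAs, among which miR-218 is not listed here, miR-9 and miR-9* met the rule in both control and CI-AKI arrays, and 5 were detected on no kidney array (miR-124, miR-137, miR-129, miR-138 and miR-153). MiR-128 and miR-7a of that list were detected on all 8 kidney arrays, but also in plasma, and miR-132, miR-212 and miR-219-5p on some kidney arrays. Of 4 endothelial and 6 blood cell miRNAs none met it. Between CI-AKI and control kidneys none of the tested miRNAs of these lists passed the threshold, and the median log2 difference was 0.03 over 12 tubule, 0.09 over 4 neural, 0.01 over 4 endothelial and 0.04 over 6 blood cell miRNAs, against 0.03 over all 176.

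No relation between the members across kidney pools passed the test at the scaling used. Over the 8 kidney arrays the log2 scaled signals of miR-218 and miR-135a had a Pearson r of 0.03 (exact permutation p = 0.928, two-sided) and a Spearman rho of 0.00 (exact permutation p = 1.0), in the only relation between miRNAs that was tested. Without CI-AKI pools 1 and 2, the arrays farthest from the median of miR-218, r was 0.28 (exact permutation p = 0.601). The value depended on the scaling. Without any scaling r was 0.88 (exact permutation p = 0.015), where the arrays also differ in overall brightness. With scaling to the labelling spike-in it was 0.85 (exact permutation p = 0.0065), the smallest p for r among the settings. With quantile normalization r was -0.36 (exact permutation p = 0.317). The Spearman rho was -0.71 with quantile normalization (exact permutation p = 0.05) and -0.79 in the authors' deposited table (exact permutation p = 0.023), where r was -0.41 (exact permutation p = 0.264). Each treatment and each slide row held 4 arrays, too few for a value within them.

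By likeness of detection calls over the 16 arrays, and then by the smallest SD of the log2 ratio over the 8 kidney arrays, miR-672 (SD 0.09), miR-489 (0.10), miR-196a (0.14), miR-340-3p (0.16) and miR-196c (0.19) were most like miR-218. Those most like miR-135a were miR-96 (0.31), miR-196c (0.32), miR-182 (0.34), miR-196a (0.37) and miR-9 (0.39). All had the same call as the member on all 16 arrays, which 11 of 162 candidates did. The median SD over the candidates was 0.16 for miR-218 and 0.42 for miR-135a. MiR-135a ranked 11 in the order for miR-218, with an SD of 0.42. MiR-96, the first in the order for miR-135a, had 74.2, 112, 79.1 and 127 in kidney CI-AKI pools 1 to 4, and 96.6, 119, 141 and 103 in kidney control pools 1 to 4. Its lowest pool was CI-AKI pool 1, not CI-AKI pool 3 as for miR-135a.

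The authors' deposited table of log2 values gave miR-218 values of 6.83 to 7.18 in kidney CI-AKI and 6.89 to 6.98 in kidney control pools, against 0.80 to 0.93 in plasma CI-AKI and 0.87 to 1.41 in plasma control pools. In the authors' deposited table miR-135a lay at 4.28 to 5.47 in kidney CI-AKI and 5.01 to 5.49 in kidney control pools, against 0.40 to 0.82 in plasma CI-AKI and 0.41 to 0.82 in plasma control pools. On that scale the kidney groups overlapped for both miRNAs, and every kidney value lay above every plasma value. These are the same arrays, including the control arrays that chose the members, so the table adds no independent comparison of the tissues.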

How the data were processed

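Per the file headers, the authors read 16 Agilent 1-colour rat miRNA arrays with Feature Extraction 10.7.3.1. The deposited intensity per spot is a background-corrected processed signal; 20 spots a miRNA were used here without control and outlier-flagged spots, averaged over spots and then over probes. The columns of the deposited log2 table correlated with the log2 total signal of their own arrays at 0.916 to 0.9987 and had the same median, 2.28, in every column; quantiles of its columns lay within 0.016 of each other, and how the authors made it is not given in the sources used here. That table was one of the alternatives.

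For scaling, the 75th percentile over miRNAs detected on all arrays concerned (163 in kidney, 65 over all 16) was set equal between arrays, at the geometric mean. Signals under a floor (1.79 in kidney, 0.988 for the CI-AKI tissue contrast) were set to it before log2, so fits against plasma depend on the floor. Tests were limma 3.58.1 (R 4.3.3), two-sided, Benjamini-Hochberg adjusted over all miRNAs tested, with pools as replicates and a threshold of 0.05; relations used exact permutation tests (scipy 1.17.1). No spot was saturated. The number of arrays limits the precision. The fits were also run on simulated, normally distributed values with known changes. Those values had no floor, weak array or slide effect, so they do not bear on the fits against plasma.

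Same-numbered CI-AKI and control kidney pools had correlations of their deviations of 0.311, 0.571, 0.055 and 0.225. For CI-AKI kidney and plasma pools of the same number they were 0.178, 0.405, 0.124 and -0.022. No correlations of differently numbered pools were set beside these, and same-numbered pools also shared a slide row. The values therefore do not decide whether the numbers pair samples. The main fits left the pools unpaired, and a block for the number was one of the alternatives. With 12 rats per treatment and 3 rats in each pool, kidney and plasma pools of a treatment shared rats, which the main tissue fit did not model. Per the labels, 6 of 8 letter codes stand for opposite treatments in plasma and kidney, so titles set the groups. Members and lists were chosen with earlier results of these data known. Named are the members, every miRNA meeting the rule, up to 5 just outside it, the 5 most alike, relatives and listed miRNAs. Named after their values were seen were miR-327, miR-466b, miR-494 and miR-133b. In CI-AKI pool 3 this also holds for miR-333_v11.0, miR-182, miR-139-3p, miR-409-3p and miR-320. Alternatives changed scaling, background, filter, floor, probes, fit and arrays.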

Additional observations from a re-analysis of the deposited data

How the results depend on the processing

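No alternative brought either miRNA past the threshold between CI-AKI and control kidneys, with adjusted p between 0.864 and 1.0 for miR-218 and between 0.79 and 1.0 for miR-135a. The log2 difference of miR-218, 0.02, turned to -0.025 without scaling, -0.019 with spike-in scaling, -0.038 with the brightest probe and -0.013 within slide row 2; leaving out 1 pool gave -0.059 to 0.076. That of miR-135a, -0.19, turned to 0.17 within slide row 1 and 0.20 with treatments from the letter codes; leaving out 1 pool gave -0.33 to 0.058. The count of miRNAs called in kidney, 3, was 1 with quantile normalization, without scaling, with all groups in 1 fit and within either slide row, and 0 with normexp or the letter codes (the main setting had 11 at an unadjusted p below 0.05); leaving out 1 pool gave 2 to 3.

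Between CI-AKI kidney and plasma, normexp turned the differences to -0.84 for miR-218 (adjusted p = 0.409) and -1.80 for miR-135a (adjusted p = 0.104) in limma and left 5 of 50 calls higher in kidney; its added offset of 50 is multiplied on weak arrays by the scaling. Scaling over all miRNAs gave 77 calls. All other alternatives kept both calls. Both members were undetected in plasma and entered through the kidney group alone, so the kept calls add no support to the detection calls. The fitted log2 sizes rest on the floor and are not measured differences between tissues. Against 5.52 for miR-218 and 4.43 for miR-135a, total signals gave 4.43 and 2.80. Leaving out 1 pool gave 5.22 to 6.37 and 3.84 to 5.39.

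The replicate block left the differences at 0.02 and -0.19 between treatments (adjusted p = 0.945 and 0.915 in limma). The floor-dependent fits between tissues stayed at 5.52 and 4.43. There were 3 calls in kidney and 52 higher in kidney. No call of the members changed, which between tissues adds no support for the reason given above. The relation of the members, r = 0.03, became -0.36 with quantile normalization, -0.10 with the brightest probe and -0.41 in the authors' deposited table (where rho was -0.79), 0.88 without scaling and 0.85 with spike-in scaling; leaving out 1 array gave -0.33 to 0.17. Where no value shows it, the cause was not tested. Signals near the limit in plasma have no order.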
